A study of Homo sapiens with 6 samples.

Results

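The genes described here are the C/EBP transcription factor genes CEBPA, CEBPB, CEBPD, CEBPE, CEBPG and CEBPZ and the Tribbles pseudokinase genes TRIB1 and TRIB2. They were chosen by name, and all 8 were among the 19775 genes measured. A total of 13 probe sets, the groups of short probes that report a transcript on the array, were annotated to exactly 1 of them, and the probe set with the highest mean over all 6 arrays stood for each gene. RNA had been taken from MV4;11 cells, which derive from a human acute myeloid leukaemia and carry MLL-AF4, after 3 h in 25 nM CA (3 arrays), named cortistatin A in the title of the series, or after 3 h in the solvent DMSO (3 arrays). This natural steroid alkaloid blocks CDK8 and CDK19, which are the kinase subunits of Mediator. Both groups carry the fusion, grew in the same medium and were wells of a single line plated in triplicate, with 1 dose and 1 time. Separate cultures are not stated, so the p-values cover the spread between these wells only, and that spread may be technical.

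The C/EBP proteins are basic leucine zipper (bZIP) factors that pair through the zipper and bind DNA as dimers. C/EBPα directs the differentiation of myeloid progenitors into granulocytes and monocytes and is often mutated or silenced in acute myeloid leukaemia. TRIB1 and TRIB2 have a kinase fold with little or no catalytic activity, and they act as scaffolds that bring C/EBPα to the ubiquitin ligase COP1 for degradation. In mice, forced expression of either gene in marrow cells causes acute myeloid leukaemia. CEBPZ shares the family name but is not a bZIP factor.

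Myeloid markers gave signal on these arrays. Of 10 measured myeloid markers 0 were dim, which here means a mean no higher than the median probe set (3.74 on the log2 scale), and LYZ, the lysozyme gene, had a mean of 12.41. Among the markers of other blood cells, 4 of 6 T cell, 1 of 5 B cell, 1 of 5 erythroid and 2 of 5 megakaryocyte markers were dim. Most B cell, erythroid and megakaryocyte markers thus passed this cut-off too, so it does not tell the cell types apart. The mean log2 level of the myeloid markers was 6.71 to 6.81 in CA and 6.69 to 6.78 in DMSO. For T cell markers it was 3.01 to 3.03 in CA and 3.01 to 3.11 in DMSO, and for B cell markers 4.04 to 4.23 in CA and 4.01 to 4.17 in DMSO. For erythroid markers it was 4.34 to 4.56 in CA and 4.45 to 4.58 in DMSO, and for megakaryocyte markers 3.75 to 3.999 in CA and 3.77 to 3.98 in DMSO. The CA and DMSO ranges overlapped for all 5 lists. In RNA from whole wells, fewer cells of a type and less RNA per cell cannot be told apart. The 3' minus 5' log2 signal of the beta-actin control, which reads how long the labelled transcripts are, was 1.88, 1.89 and 2.08 in CA and 1.77, 1.69 and 1.79 in DMSO. All CA values lay above all DMSO values (exact permutation test, two-sided p = 0.1, the lowest possible with 3 against 3 arrays). Averaged over the 5 human control transcripts, beta-actin among them, the 3' minus 5' signal was -0.13 to -0.032 in CA and -0.23 to -0.047 in DMSO and overlapped (two-sided exact permutation p = 0.7). Averaged over all 22 control transcripts, most of which are bacterial spike-ins and so do not read the RNA of the cells, it was 0.72 to 0.77 in CA and 0.65 to 0.75 in DMSO and overlapped (two-sided exact permutation p = 0.4). Both averages lay below the beta-actin value on every array, and whether the other controls read transcript length was not tested. Both averages entered fits as covariates. The beta-actin value on its own entered none, and its part in the results below was not tested.

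The promoters of 3 genes are shown because CEBPA was called, CEBPE is the member of late granulocyte differentiation, and CEBPG lies on the same chromosome as CEBPA but differed little between the groups. The RefSeq promoter table (GRCh38.p14) held 6 of the 8 genes. No sequence is shown for CEBPD or TRIB1. Each sequence is the 250 bases before the gene's annotated start, 5' to 3' on the strand of the gene, at chr19:33302535-33302784 on the minus strand for CEBPA, at chr14:23119256-23119505 on the minus strand for CEBPE, and at chr19:33373459-33373708 on the plus strand for the upstream one of the 2 CEBPG starts. Capitals mark every match, on either strand, to 7 motifs. These were the TATA box written TATAAA, the GC box written GGGCGG, the CCAAT box itself, the C/EBP motif written TTGCNNAA, the E-box written CACGTG, the core of the cyclic AMP response element written TGACG, and the AP-1 motif written TGANTCA.
CEBPA: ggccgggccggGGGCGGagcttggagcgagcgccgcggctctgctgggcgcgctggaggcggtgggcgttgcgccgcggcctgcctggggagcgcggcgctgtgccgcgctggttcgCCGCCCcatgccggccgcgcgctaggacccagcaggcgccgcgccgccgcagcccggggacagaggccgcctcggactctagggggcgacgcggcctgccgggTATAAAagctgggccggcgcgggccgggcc
CEBPE: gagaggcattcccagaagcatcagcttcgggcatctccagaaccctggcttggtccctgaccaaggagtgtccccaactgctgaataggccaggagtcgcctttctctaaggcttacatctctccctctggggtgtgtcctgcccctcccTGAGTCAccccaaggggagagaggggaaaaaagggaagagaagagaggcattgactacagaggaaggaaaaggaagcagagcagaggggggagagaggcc
CEBPG: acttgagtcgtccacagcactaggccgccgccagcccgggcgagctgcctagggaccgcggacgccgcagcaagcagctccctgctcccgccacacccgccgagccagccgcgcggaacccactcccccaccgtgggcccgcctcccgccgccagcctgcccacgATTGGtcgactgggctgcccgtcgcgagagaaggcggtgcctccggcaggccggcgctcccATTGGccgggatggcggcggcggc

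The CEBPA window held TATAAA starting 30 bases before the start and GGGCGG at 239 and 133 bases. None of the other 5 motifs matched there. TATAAA was found in 10.7% and GGGCGG in 42.6% of the 35116 promoter windows of the same length. The CEBPE window held 1 match, the AP-1 motif at 100 bases, which 6.57% of all windows held. The CEBPG window held CCAAT on the minus strand, at 85 and 24 bases, as did 32% of all windows on either strand. The windows of CEBPA and CEBPG were 81.2% and 76% G or C, that of CEBPE was 57.2%, and the median of all windows was 58%. The C/EBP motif TTGCNNAA (9.05% of all windows) was not found in the window of any of the 6 genes. The motifs overlapped each other nowhere in these 3 windows. A match is a description of these letters only.

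The comparison asked how the transcripts of a myeloid master regulator, its relatives and its degradation scaffolds differ after 3 h of Mediator kinase inhibition. CEBPA and TRIB1 rose with CA and the other 6 genes did not pass the test. That makes 2 of 8 genes called, both higher, where 0.582% of all genes were called in either direction and 0.445% were higher (limma, Benjamini-Hochberg adjusted p under 0.05 over all genes). The members had been chosen with earlier results of these arrays known. The changes of the 8 genes ran from 0.014 to 0.57 on the log2 scale with a median of 0.18, against a median of 0.0065 over all genes. For 6 of the 8 genes every CA array lay above every DMSO array, as it did for 10.2% of all genes, and for 0 of the 8 every CA array lay below, as it did for 9.22% of all genes (19.4% in either direction). With no adjustment, 4 of 8 had a limma p under 0.05, all higher, against 6.81% of all genes higher and 5.83% lower.

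**Figure D1:**
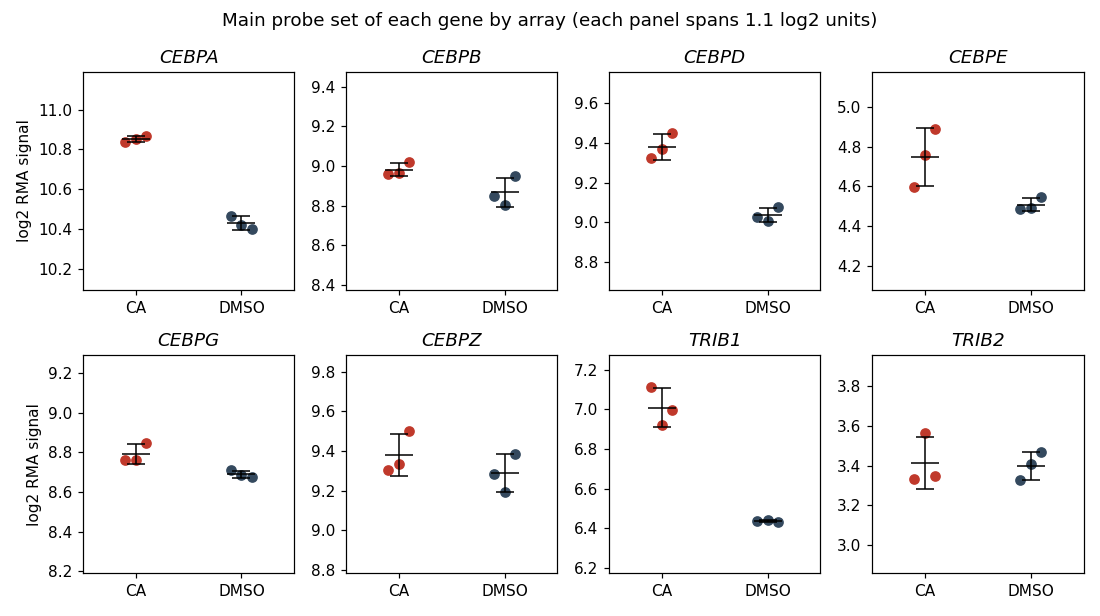
Log2 RMA signal of the main probe set of each gene on each array, CA left and DMSO right (points, 3 arrays per group; horizontal mark and bar, mean and SD). Each panel spans the same 1.1 log2 units around its own mean; the groups are apart for all genes but CEBPZ and TRIB2.

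CEBPA, the granulocyte and monocyte regulator, had 1 probe set, which was not dim. It read 10.84, 10.85 and 10.87 in CA and 10.47, 10.42 and 10.40 in DMSO on the log2 scale. All 3 CA arrays lay above all 3 DMSO arrays, and the values within each group lay close together. The means were 10.85 ± 0.02 in CA and 10.43 ± 0.03 in DMSO (SD, n = 3 arrays each). CEBPA rose by 0.42 ± 0.05 (limma SE), or 1.34-fold, with a limma adjusted p of 0.0248 and a 95% interval of 0.31 to 0.54. The noncoding transcript CEBPA-DT starts 287 bases from CEBPA and runs the other way, so the CEBPA window shown above lies between the 2 starts. CEBPA-DT is no member, and was chosen after its values were seen. It read 6.81, 6.70 and 6.79 in CA and 6.49, 6.52 and 6.49 in DMSO, with the CA arrays all higher. Its change was 0.27 ± 0.05 and did not pass over all genes (limma adjusted p = 0.109).

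TRIB1, which brings C/EBPα to COP1, was 37th of all genes both by the size of its rise and by its p. Its main probe set read 7.11, 6.92 and 6.995 in CA and 6.44, 6.44 and 6.43 in DMSO. The lowest CA array lay well above the DMSO arrays, which were nearly alike. The means were 7.01 ± 0.10 in CA and 6.44 ± 0.0059 in DMSO (SD, n = 3 arrays each). TRIB1 rose by 0.57 ± 0.06 (limma SE), or 1.49-fold, with a limma adjusted p of 0.0248 and a 95% interval of 0.42 to 0.72. Both other probe sets of TRIB1 were dim and gave 0.22 ± 0.16 and 0.0065 ± 0.15, and their groups overlapped. With the mean of its 3 probe sets TRIB1 was at 0.26 and was not called (limma adjusted p = 0.233). TRIB2, the paralogue with the same scaffold role, was dim on these arrays. Its main probe set read 3.33, 3.56 and 3.35 in CA and 3.33, 3.41 and 3.47 in DMSO, and the groups overlapped. The change was 0.014 ± 0.079 with a 95% interval of -0.18 to 0.20 (limma adjusted p = 0.963), and the other probe set, also dim, gave -0.036 ± 0.103.

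The calls of CEBPA and TRIB1 needed all 6 arrays. Few genes of any kind were called without 1 array, 0 to 4 of 19775, against 115 with all 6. With each array left out in turn the limma adjusted p was 0.103 to 0.130 for CEBPA and 0.0772 to 0.123 for TRIB1, while the changes stayed at 0.41 to 0.44 and 0.52 to 0.62. Both also missed the threshold when all 54613 probe sets were tested (limma adjusted p = 0.0809 for CEBPA and 0.0604 for TRIB1) and when the 3' minus 5' measure over all controls entered as a covariate (limma adjusted p = 0.120 and 0.150). With that covariate 0 of all genes were called.

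**Figure D2:**
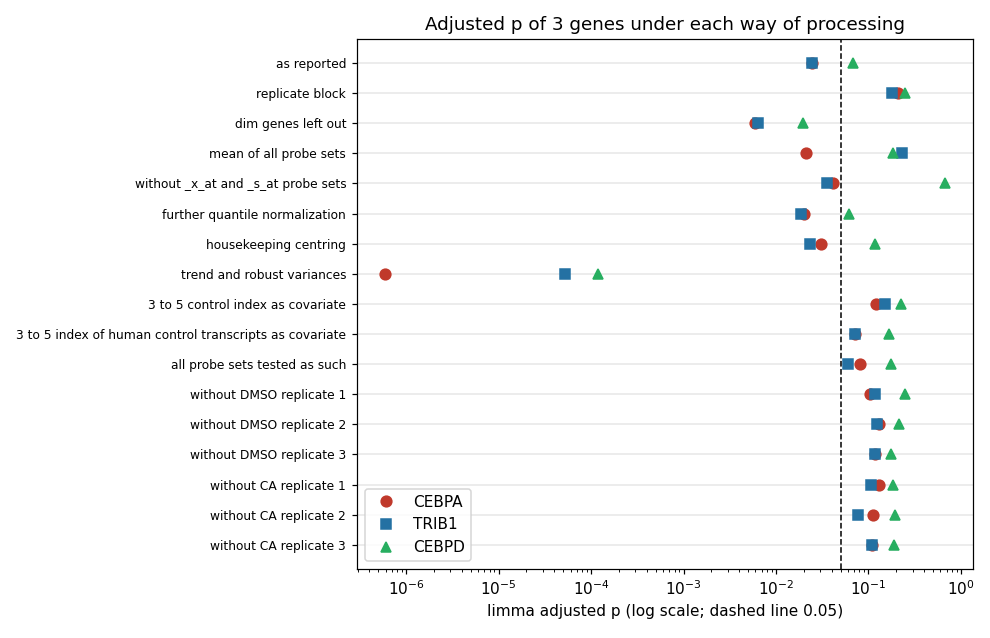
Limma adjusted p (log axis) of CEBPA (circles), TRIB1 (squares) and CEBPD (triangles) as reported and under 16 other ways of processing, 1 per line, with the dashed line at 0.05. CEBPA and TRIB1 lie left of the line as reported and under 6 and 5 of the others, and CEBPD lies left of it with dim genes left out and with trend and robust variances.

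CEBPD encodes C/EBPδ, which is induced in the acute phase response and by bacterial products in macrophages. Its main probe set read 9.32, 9.37 and 9.45 in CA and 9.03, 9.005 and 9.08 in DMSO, with the CA arrays all higher. The means were 9.38 ± 0.06 in CA and 9.04 ± 0.04 in DMSO (SD, n = 3 arrays each). The change was 0.34 ± 0.06, or 1.27-fold, with a 95% interval of 0.21 to 0.48, and it missed the threshold (limma adjusted p = 0.0689). This probe set is of the _s_at type, which can match several transcripts. The other was dim, gave 0.15 ± 0.12 and overlapped between the groups. CEBPD passed with dim genes left out (limma adjusted p = 0.0197) and when variances were fitted with trend and robustly (limma adjusted p = 0.000118). Over all 16 alternatives its adjusted p was 0.000118 to 0.682.

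CEBPE encodes C/EBPε, the factor of late granulocyte differentiation that turns on the genes of secondary granules. Its single probe set read 4.59, 4.76 and 4.89 in CA and 4.48, 4.49 and 4.54 in DMSO. It was not dim, but its mean of 4.63 lay little above the 4.34 to 4.58 that erythroid markers averaged, which limits what its values show. The CA arrays were all higher and spread more than the DMSO arrays. The change was 0.24 ± 0.08, with a 95% interval of 0.05 to 0.43, and did not pass (limma adjusted p = 0.291). CEBPB encodes C/EBPβ, which acts in macrophage activation and in granulocyte production under infection. It read 8.96, 8.97 and 9.02 in CA and 8.85, 8.80 and 8.95 in DMSO. The groups lay side by side without overlap, with the lowest CA value next to the highest DMSO value. The change was 0.12 ± 0.06, with a 95% interval of -0.02 to 0.25 (limma adjusted p = 0.473).

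CEBPG encodes C/EBPγ, which lacks an activation domain of its own and pairs with other bZIP factors, ATF4 among them. Its main probe set read 8.76, 8.76 and 8.85 in CA and 8.71, 8.68 and 8.67 in DMSO. The CA arrays were higher by a small margin, at 0.10 ± 0.05 with a 95% interval of -0.02 to 0.22 (limma adjusted p = 0.475). Its other probe set was not dim either, read 8.68, 8.62 and 8.66 in CA and 8.65, 8.60 and 8.68 in DMSO, and gave 0.0089 ± 0.060 with overlapping groups. CEBPZ, a nucleolar protein related to a ribosome assembly factor of yeast, also binds promoters in leukaemia cells, where it recruits the RNA methyltransferase METTL3. It read 9.30, 9.33 and 9.50 in CA and 9.28, 9.19 and 9.39 in DMSO, and the groups overlapped. The change of CEBPZ was 0.09 ± 0.08, with a 95% interval of -0.09 to 0.28 (limma adjusted p = 0.691). It was 0.030 without CA replicate 3, 0.044 without DMSO replicate 2 and 0.14 without DMSO replicate 3.

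**Figure D3:**
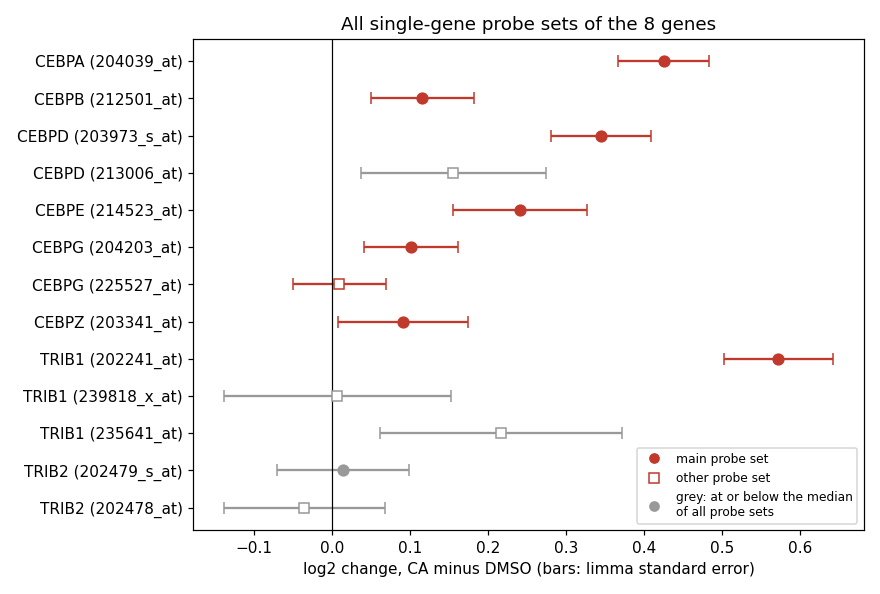
Log2 change, CA minus DMSO, of the 13 single-gene probe sets of the 8 genes (filled circles, main probe set; open squares, other probe sets; bars, limma standard error from the fit of all probe sets; grey, dim probe sets). CEBPA, CEBPD and TRIB1 have the largest changes, and the second probe set of CEBPG, which is not dim either, lies near 0.

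In the fit of all probe sets 0 of the 13 passed (limma, 0.0513% of all probe sets called), 4 had an unadjusted p under 0.05, against 10.3% of all probe sets, and 6 of the 13 had groups apart, against 16.5% of all probe sets. These 6 were the main probe sets of CEBPA, CEBPB, CEBPD, CEBPE, CEBPG and TRIB1. Of the 13 probe sets 5 were dim, namely both of TRIB2, both lesser ones of TRIB1 and the lesser one of CEBPD.

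Whether CEBPA changed by more than its relatives was tested on the difference of both log2 values within each array, for 7 pairs. The change of CEBPA exceeded that of CEBPG by 0.32 (95% interval from the pooled SD 0.26 to 0.39), that of CEBPB by 0.31 (0.16 to 0.46), that of CEBPZ by 0.33 (0.10 to 0.56) and that of TRIB2 by 0.41 (0.14 to 0.68). The difference lay higher on all 3 CA arrays than on any DMSO array for these 4 pairs. TRIB2 was dim, which limits what the difference from it shows. From CEBPD it differed by 0.081 (-0.043 to 0.20) and from CEBPE by 0.18 (-0.048 to 0.42), and there the groups overlapped. From TRIB1 it differed by -0.15 (-0.33 to 0.035), so the change of TRIB1 was the larger with the main probe sets, while the mean of all probe sets turned this difference to 0.16. Both lesser probe sets of TRIB1 in that mean were dim. The mean of all probe sets also moved the difference from CEBPD, whose lesser probe set was dim, to 0.18 (two-sided exact permutation p = 0.1) and that from CEBPG to 0.37. With the main probe sets the two-sided exact permutation p was 0.1 for 5 pairs and 0.2 for CEBPD and CEBPE, and 0.14 and 0.2 after adjustment over the 7 pairs. A p of 0.1 is the smallest that 3 against 3 arrays allow, so this test could not pass 0.05.

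**Figure D4:**
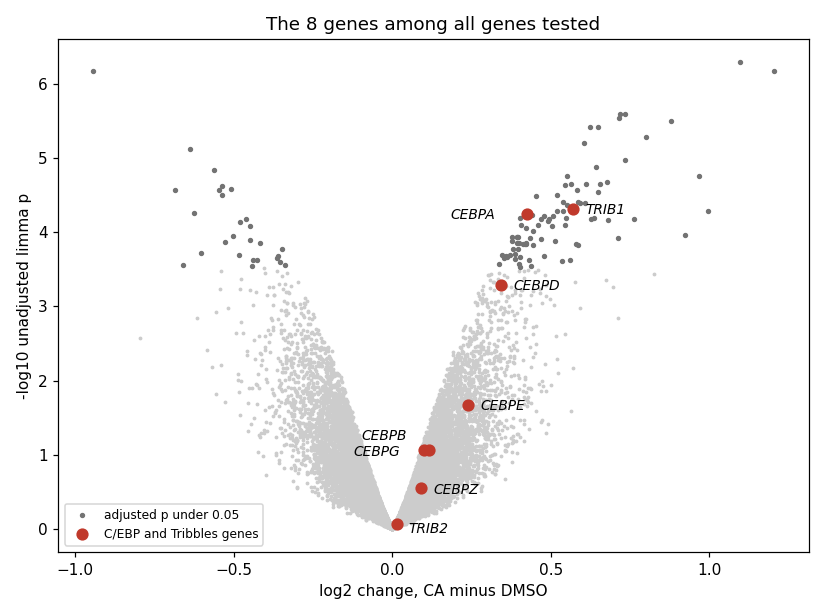
Log2 change, CA minus DMSO, against -log10 of the unadjusted limma p for 19775 genes (light dots), with the 115 genes at an adjusted p under 0.05 in dark grey and the 8 genes named in red. CEBPA and TRIB1 lie among the called genes, CEBPD just below them, and CEBPB, CEBPG, CEBPZ and TRIB2 near the bottom.

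The genes whose profile over the 6 arrays was most like that of CEBPA were sought among the 12636 other genes that were not dim. The measure was the root mean square difference of mean-centred log2 values. The 5 nearest were JARID2, a subunit of the polycomb complex PRC2 (0.024), TIMM8A, a mitochondrial import chaperone (0.027), TP53RK, a kinase of the KEOPS complex (0.028), URB2, a ribosome biogenesis factor (0.028), and the AP-1 member FOSL2 (0.033). The same measure of CEBPA against a flat line was 0.21. Their log2 changes were 0.38 to 0.45. For TRIB1 the nearest were CYTIP, a cytohesin-binding protein of leukocytes (0.036), the chemokine receptor CCR1 (0.045), the chloride exchanger CLCN4 (0.045), SLC49A4 (0.060) and MSMO1, an enzyme of cholesterol synthesis (0.063), against 0.29 for a flat line. Their changes were 0.50 to 0.64. These genes were picked for their likeness, so their changes are a description.

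Among 25 genes that C/EBP factors are known to bind or activate in myeloid cells, 0 passed over all genes (limma), and 6 had an unadjusted p under 0.05, all higher, against 6.81% of all genes higher and 12.6% in either direction. The median change was 0.034, against 0.0065 over all genes, and was 0.022 to 0.11 over the alternatives, the highest without DMSO replicate 2. CSF2RA, a chain of the GM-CSF receptor with 4 probe sets, the main one of the _x_at type, read 6.49, 6.56 and 6.51 in CA and 6.25, 6.15 and 6.07 in DMSO (0.36 ± 0.06, limma adjusted p = 0.0782). The CA arrays were all higher, as they were for GFI1, a repressor needed for granulocytes (0.27 ± 0.05, limma adjusted p = 0.0861), the cytokine TNF (0.30 ± 0.06, limma adjusted p = 0.109) and the retinoid receptor RXRA (0.19 ± 0.05, limma adjusted p = 0.215). The other 2 of the 6 were IL6R (0.16 ± 0.05) and S100A9 (0.13 ± 0.05), with limma adjusted p of 0.257 and 0.349. All 6 had every CA array above every DMSO array, as did 10.2% of all genes. For all other genes of the list the groups overlapped. Among them were CSF3R (0.016 ± 0.057), ELANE (0.020 ± 0.065), MPO (-0.029 ± 0.13) and PRTN3 (-0.080 ± 0.052). Of the 25 changes 19 were above 0, against 10364 of 19775 over all genes.

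Among 14 measured factors that act at the CEBPA locus in blood cells or control its transcription, MYC and GATA2 rose and 0 fell (14.3% called, against 0.582% of all genes), with a median change of 0.14, or 0.075 with the mean of all probe sets. With an unadjusted limma p under 0.05, 6 of the 14 were higher and 0 were lower, against 6.81% and 5.83% of all genes. The list was chosen with earlier results of these arrays known, so its shares are a description only. MYC read 11.12, 11.15 and 11.13 in CA and 10.76, 10.69 and 10.77 in DMSO, a rise of 0.39 ± 0.05 (limma adjusted p = 0.0332). Its only probe set is of the _s_at type, which can match several transcripts. GATA2, a factor of stem and progenitor cells, read 6.72, 6.60 and 6.84 in CA and 6.14, 6.15 and 6.26 in DMSO, a rise of 0.53 ± 0.08 (limma adjusted p = 0.0452). In both genes every CA array lay above every DMSO array. With the mean of its 3 probe sets GATA2 was at 0.26 and was not called (limma adjusted p = 0.197). With each array left out in turn neither was called (limma adjusted p 0.122 to 0.159 for MYC and 0.0946 to 0.204 for GATA2). Those fits called only 0 to 4 of all 19775 genes. The progenitor factor LMO2 stood at 0.31 ± 0.05 (limma adjusted p = 0.0619) and MEIS1 at 0.18 ± 0.05 (limma adjusted p = 0.217). SPI1, which encodes the myeloid factor PU.1, was at 0.0016 ± 0.085 with overlapping groups. Its only probe set had a mean of 4.36, as low as the erythroid markers averaged in CA (4.34 to 4.56), which limits what this value shows. RUNX1 and HOXA9 had no single-gene probe set here.

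Of 16 bZIP partners and relatives of the C/EBPs 0 passed, against 0.582% of all genes. With an unadjusted limma p under 0.05, 1 was higher and 2 were lower, against 6.81% and 5.83% of all genes. NFIL3, a bZIP repressor, was at 0.28 ± 0.06 (limma adjusted p = 0.173), the stress factor ATF5 at -0.20 ± 0.06 (limma adjusted p = 0.235), the circadian factor DBP at -0.26 ± 0.08 (limma adjusted p = 0.253) and the AP-1 member JUNB at -0.17 ± 0.08 (limma adjusted p = 0.417). Of 15 measured genes of the Tribbles and COP1 pathway 0 passed, and 1 higher and 2 lower had an unadjusted limma p under 0.05, beside the same shares of all genes. The third Tribbles gene, TRIB3, which does not degrade C/EBPα, read 5.997, 6.12 and 6.10 in CA and 5.82, 5.85 and 5.70 in DMSO (0.28 ± 0.06, limma adjusted p = 0.167). The CA arrays were all higher. ACACA, the acetyl-CoA carboxylase, was at -0.18 ± 0.06 (limma adjusted p = 0.281), and the ERK pathway kinases MAP2K1 and MAP2K2 were at -0.13 ± 0.05 and -0.10 ± 0.06 (limma adjusted p = 0.367 and 0.583).

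C/EBPα also slows the cell cycle through proteins such as p21 and by contact with CDK2, CDK4 and E2F. Of 14 such partners 0 passed (limma), and 4 had an unadjusted p under 0.05, all lower, against 5.83% of all genes lower and 12.6% in either direction. CDKN1A, which encodes p21, read 6.48, 6.57 and 6.58 in CA and 6.92, 6.84 and 6.89 in DMSO. The CA arrays were all lower, at -0.34 ± 0.05 (limma adjusted p = 0.0679). E2F2, E2F3 and CDK2 were at -0.28 ± 0.06, -0.13 ± 0.05 and -0.14 ± 0.06 (limma adjusted p = 0.166, 0.330 and 0.382). Of 10 nucleolar partners of CEBPZ 0 passed and 1, which was higher, had an unadjusted limma p under 0.05, against 6.81% of all genes higher. Of the 10 changes 9 were above 0, as were 10364 of 19775 over all genes. The median was 0.06, or 0.031 without CA replicate 3. RRP1, a ribosome assembly factor, was at 0.24 ± 0.08 (limma adjusted p = 0.295), and NOP2, NOC3L and RRP1B were between 0.084 and 0.099. Of 8 measured genes of the m6A writer complex, which methylates adenosine in messenger RNA, 0 passed. At an unadjusted limma p under 0.05 it was also 0, against 12.6% of all genes in either direction. METTL3 itself was at 0.0093 ± 0.055 (limma adjusted p = 0.964). VIRMA was at -0.13 ± 0.05, METTL14 at 0.14 ± 0.07 and WTAP at -0.07 ± 0.05. The medians of 4 lists lay near 0 and took either sign over the 16 alternatives. That of the bZIP list was -0.016 (-0.023 to 0.025 over the alternatives), that of the Tribbles and COP1 list -0.0070 (-0.047 to 0.021), that of the cell cycle list -0.018 (-0.045 to 0.0050) and that of the m6A list 0.0064 (-0.027 to 0.029). With arrays centred on housekeeping genes the first 3 turned to 0.0070, 0.016 and 0.0050, and the m6A median became -0.0084 after a further quantile normalization and -0.027 when probe sets of a gene were averaged.

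**Figure D5:**
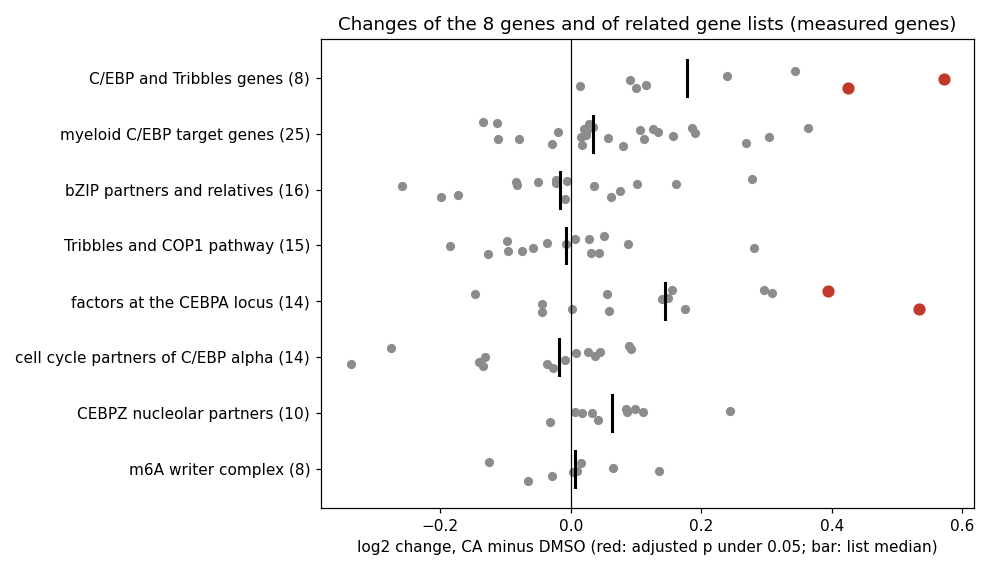
Log2 change, CA minus DMSO, of the 8 genes (top) and of the measured genes of 7 related lists (numbers in brackets), 1 point per gene with vertical scatter for display only. Red points passed the limma test over all genes, namely CEBPA and TRIB1 at the top and MYC and GATA2 among the factors at the CEBPA locus, and black bars are list medians.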

How the data were processed

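The deposited table holds log2 values, 1 per probe set and array, made with RMA and affy (versions not given), per the submitters' processing notes. The log2 scale is not stated in the table and was taken from the values, which lay between 0.81 and 13.84. RMA usually equalises the arrays' distributions, so a shift of all transcripts would be removed. Array medians were 3.74 to 3.77. The number of arrays limits the precision, and no sequencing depth applies. The labels name 2 RNA isolation methods without assigning them to arrays.

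Of 54675 probe sets 62 are controls, 41091 name 1 gene, 1801 several and 11721 are not named in the platform annotation used. Symbols were updated through RefSeq gene identifiers for 41037. The groups were compared by a linear model of group alone in limma 3.58.1 under R 4.3.3 (moderated, two-sided, Benjamini-Hochberg over 19775 genes, 4 residual and 2.68 prior degrees of freedom), with no filter. The gene step was tested on simulated data. A value after ± is a limma standard error, or an SD where written. No genome build is named for the arrays. Sequences are from RefSeq, and the motifs were chosen after the sequences had been seen.

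The 8 genes and the 7 lists (108 genes, 102 measured) were chosen with earlier results of these data known. Genes named from a list are those called and up to 4 with the smallest p. CEBPA-DT, IL6R, S100A9, CSF3R, ELANE, MPO, PRTN3, SPI1 and METTL3 lie outside this rule and were chosen after their values were seen. The genes most like a called member are the 5 with the smallest root mean square difference. The alternatives are in the closing section.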

Additional observations from a re-analysis of the deposited data

How the results depend on the processing

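CEBPA, CEBPB, CEBPD, CEBPE, CEBPG, CEBPZ and TRIB1 kept the sign of their change under all 16 alternatives, 10 of them other ways of processing and 6 without 1 array, and CEBPB, CEBPE, CEBPG, CEBPZ and TRIB2 were called under none. The number of the 8 genes called, 2 as reported, was 0 with the replicate block, with the index (3' minus 5' signal over all 22 control transcripts, or over the 5 human ones) as a covariate and with all probe sets tested, 1 with the mean of all probe sets, and 0 in each fit without 1 array. CEBPA missed the threshold with the replicate block (0.42), with the index of all (0.45) or human controls (0.44) and with all probe sets tested (0.42), and was 0.41 to 0.44 without 1 array. TRIB1 missed it with the replicate block (0.57), the mean of all probe sets (0.26), the index of all (0.55) or human controls (0.56) and all probe sets tested (0.57), and was 0.52 to 0.62 without 1 array. CEBPD, at 0.34, passed with dim genes left out (0.34) and with trend and robust variances (0.34). The sign of TRIB2, which is dim, turned with the mean of its probe sets (-0.011), without _x_at and _s_at types (-0.036) and with the index of all controls (-0.023), and was -0.061 to 0.054 without 1 array. Of the list genes 2 were called as reported, 7 after leaving out dim genes, 15 with trend and robust variances, 1 with the mean of probe sets and 0 with the replicate block, without _x_at and _s_at types, with housekeeping centring, with either index and with all probe sets tested, and 0 in each fit without 1 array. Over all genes 115 were called as reported, 321 after leaving out dim genes, 76 for probe set means, 54 without _x_at and _s_at types, 74 with housekeeping centring, 762 with trend and robust variances, 15 with all probe sets tested, 0 with the replicate block or the index of all controls, 9 with that of human controls, and 0 to 4 without 1 array. The replicate numbers are not said to mark a shared batch. Over all genes the deviations of same-numbered arrays from their group means correlated at -0.05, 0.01 and 0.02. Such a correlation cannot show whether a batch shared by these arrays acted on some genes, and this was not tested. The fit with the index of human controls was chosen after seeing the data. The causes were not tested. The dim probe sets of TRIB2, TRIB1 and CEBPD limit what their values show.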
